A study of Mus musculus with 6 samples.

Results

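Fat cells release proteins that act on other tissues, and 8 genes for such adipokines and secreted fat cell proteins are described here in mouse osteosarcoma lines and in cultures of a bone marrow stromal line. The genes were Adipoq (adiponectin), Retn (resistin), Lep (leptin), Cfd (complement factor D, or adipsin), Agt (angiotensinogen), Rbp4 (retinol-binding protein 4), Rarres2 (chemerin) and Nampt (nicotinamide phosphoribosyltransferase). They were chosen by name, with earlier results of these arrays known. Each was read from its brightest probe set, by the mean of all arrays. Of the 8 names, 7 matched 1 probe set each, among 19938 genes in all. Cfd was not analysed here.

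Adipokines are hormones, enzymes and carriers that report the state of fat stores to muscle, liver, brain and immune cells. Bone marrow stromal cells can form both osteoblasts and fat cells, and marrow fat cells secrete adiponectin and other adipokines beside the bone-forming cells. Adipoq and Retn are markers of mature mouse fat cells, whereas Agt, Rbp4 and Rarres2 are made in liver and stromal cells as well, and Nampt is an enzyme of nearly all cells.

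RNA from 6 samples was measured on 1 Affymetrix Mouse Gene ST array each. Primary tumours of C57Bl6 mice gave the 3 osteosarcoma lines, OS_493H, OS_494H and OS_716H. The mice carried Osx-Cre and homozygous floxed (fl/fl) alleles of p53 and Rb, so that Cre is driven by the promoter of Osterix (Sp7), a transcription factor of the osteoblast lineage. The tumours of OS_493H and OS_494H were at the hip, in a female and a male aged 188 and 190 (unit not given), and that of OS_716H was in the tibia of a female aged 226. The other group was 3 samples of KUSA4b10, also labelled C57Bl6, kept for 21 days in 50 ug/ml ascorbate from confluence on. They are called osteoblast cultures 1 to 3 here, and all are 1 cell line. The treatment text stands in all 6 records but names KUSA4b10 alone, and the effects of tumour origin, days in culture and ascorbate cannot be told apart. Their titles number them as replicates and carry the tags Ex1, Ex2 and Ex3, which the labels do not explain. If these were not separate experiments, the p-values in part measure technical spread. In either case the spread of the cultures is that of repeats of 1 cell line, and does not cover other osteoblasts.

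Values are log2 expression from RMA, a method that summarises each probe set over its probes and gives no detection call, so a low value does not say that a transcript is absent. The array medians were 7.45 to 7.58. The array labelled OS_716H goes against its labelled sex: Xist, the RNA of the inactive X chromosome, was 5.50 in it and 12.62 in OS_493H, and the Y-linked gene Uty was 10.06, against 9.90 in OS_494H and 5.11 in OS_493H. Rb1, targeted in the model, fell to a mean of 9.61 ± 0.32 (SD, n = 3) in the lines from 10.67 ± 0.01 (SD, n = 3) in the cultures. Culture 2 stood apart from the other cultures, with 150 genes over 2-fold from culture 1 and 186 from culture 3, against 3 between cultures 1 and 3. Of 5 measured osteoblast markers, Ibsp, Dmp1, Col1a1, Alpl and Sp7 were at culture means of 13.23, 11.16, 13.31, 12.20 and 9.51, and Ibsp and Dmp1 fell in the lines, to 7.07 and 6.80. Without OS_716H Alpl passed as well (adjusted p = 0.0183).

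The stretches before the start sites of 3 members that fell in the lines, and of Lep, which did not, are shown so that the letters can be set beside the values. They are the 250 bases upstream of the RefSeq start site in build GRCm38.p6, 5′ to 3′ on the strand of the gene, at chr16:23146286-23146535 (plus strand), chr8:3655520-3655769 (plus strand), chr8:124569707-124569956 (minus strand) and chr6:29059971-29060220 (plus strand). Capitals mark exact matches, on either strand, to 4 short motifs: TTGCNNAA (a core of C/EBP sites), AGGTCA (a half-site of nuclear receptors such as PPAR gamma), TATAAA (the TATA box) and CCAAT (the CCAAT box).
Adipoq: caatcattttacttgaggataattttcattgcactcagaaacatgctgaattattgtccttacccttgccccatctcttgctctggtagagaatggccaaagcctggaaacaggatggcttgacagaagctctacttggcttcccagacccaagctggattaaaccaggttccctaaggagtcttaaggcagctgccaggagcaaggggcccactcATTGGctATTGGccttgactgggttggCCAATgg
Retn: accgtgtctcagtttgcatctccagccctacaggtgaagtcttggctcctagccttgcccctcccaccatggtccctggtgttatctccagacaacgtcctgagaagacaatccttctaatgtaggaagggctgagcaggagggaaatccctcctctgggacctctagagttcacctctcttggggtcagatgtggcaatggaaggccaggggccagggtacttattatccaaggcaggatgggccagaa
Agt: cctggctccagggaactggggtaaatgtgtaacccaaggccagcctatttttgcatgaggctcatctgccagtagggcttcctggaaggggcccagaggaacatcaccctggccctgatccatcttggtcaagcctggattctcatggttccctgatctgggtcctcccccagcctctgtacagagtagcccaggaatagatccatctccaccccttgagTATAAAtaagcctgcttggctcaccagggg
Lep: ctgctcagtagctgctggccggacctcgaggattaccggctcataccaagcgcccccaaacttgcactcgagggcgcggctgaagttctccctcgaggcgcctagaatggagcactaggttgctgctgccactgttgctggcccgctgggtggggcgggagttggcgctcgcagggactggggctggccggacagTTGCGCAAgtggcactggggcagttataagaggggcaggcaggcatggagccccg

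The Adipoq stretch held 3 CCAAT boxes, whose first bases lie 34, 27 and 7 bases before the start site, and none of the other motifs. The Retn stretch held none of the 4 motifs. Agt had a TATA box 30 bases before its start site. Lep had a C/EBP core 55 bases before its start site, the palindrome TTGCGCAA, which reads the same on both strands. Among 32851 such stretches of all RefSeq genes in the table, 9.56% held the C/EBP core, 14% the half-site, 12.4% the TATA box and 33.8% the CCAAT box. No matches overlapped. These are matches of letters and not sites of binding, and a motif absent from 250 bases may lie elsewhere.

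In the comparison of the lines with the cultures, 4 of the 7 measured members fell and none rose. They were Adipoq, Retn, Rarres2 and Agt, and Lep, Rbp4 and Nampt did not pass the test. The test was limma over all 19938 genes, with a call at a Benjamini-Hochberg adjusted p under 0.05. Of all genes, 11.4% were called lower and 13.2% higher, which is 2274 and 2622 genes. Without culture 1 these numbers were 1211 and 1533, without culture 3 they were 1350 and 1610, and with median centring 1800 and 3129. The median log2 difference, lines minus cultures, was -1.33 over the 7 members and -0.02 over all genes. Since the members were chosen with earlier results known, these shares and medians are a description. Each of the 4 kept its call, and no member rose, on leaving out any 1 array and under the other settings tried. In RNA from whole cultures, fewer cells of a type and less RNA per cell cannot be told apart.

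**Figure D1:**
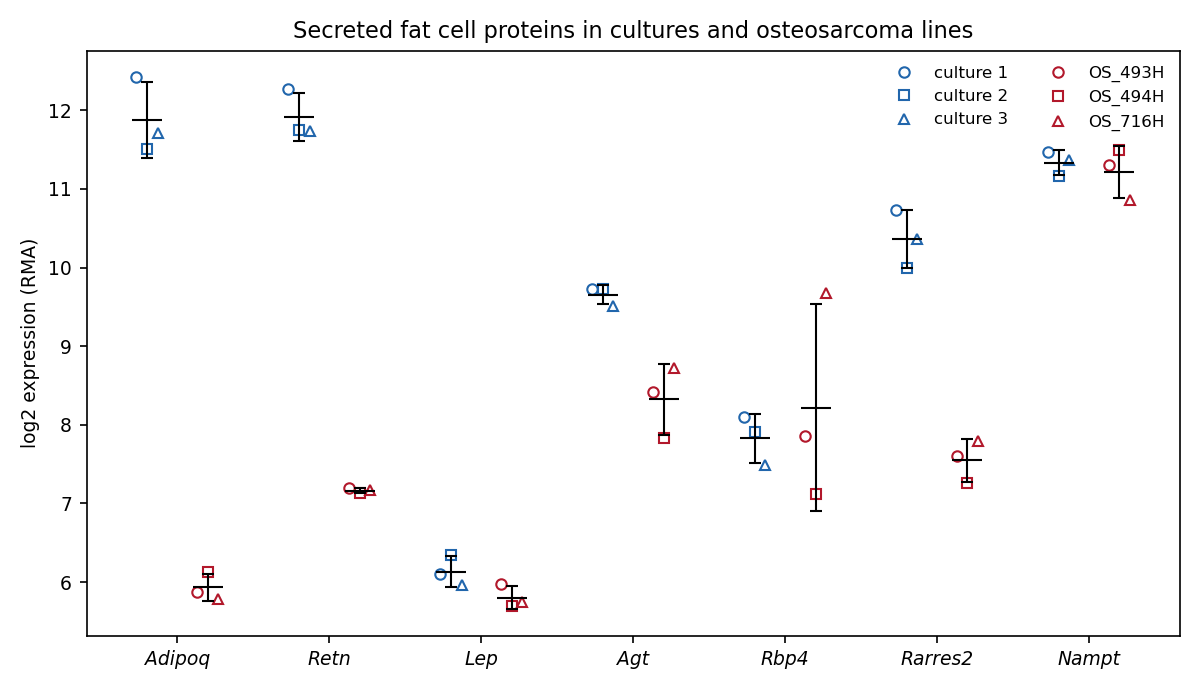
Log2 expression of the 7 measured members (y axis, RMA) in the 3 osteoblast cultures (blue) and the 3 osteosarcoma lines (red), with 1 symbol per array and the mean ± SD of each group in black. Adipoq and Retn lie at 11.50 or above in every culture and at 7.19 or below in every line, whereas the groups overlap for Lep, Rbp4 and Nampt.

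Adipoq encodes adiponectin, a hormone that raises insulin sensitivity. Its log2 expression was 12.42, 11.50 and 11.71 in cultures 1, 2 and 3, and 5.88, 6.13 and 5.79 in OS_493H, OS_494H and OS_716H. All lines lay far below all cultures, and culture 1 was the highest sample. The lines also lay below the array medians (7.45 to 7.58). The fold thus rests on low values that do not say whether the transcript was present in the lines. The means were 11.88 ± 0.48 and 5.93 ± 0.18 (SD, n = 3 each). The lines were 61.6-fold lower, or -5.95 ± 0.24 on the log2 scale (SE, limma adjusted p = 1.28e-04). Without OS_716H the difference was -5.87, and without culture 2 it was -6.13.

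Retn encodes resistin, a cysteine-rich hormone that in mice comes mainly from white fat cells and opposes insulin action. It stood at 12.27, 11.75 and 11.73 in cultures 1, 2 and 3, and at 7.19, 7.13 and 7.17 in the lines in the same order as before. The lines were nearly identical, with an SD of 0.03, and culture 1 was again the highest. Every line lay below the array medians (7.45 to 7.58). The small SD and the fold thus rest on low values, which do not say whether the transcript was present in the lines. The log2 difference of -4.76 ± 0.15 (SE, limma adjusted p = 1.06e-04) was 27.0-fold.

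Rarres2 encodes the precursor of chemerin, which attracts immune cells and promotes fat cell formation. Its values were 10.73, 9.99 and 10.36 in the cultures and 7.60, 7.25 and 7.80 in the lines. The groups were separated by over 2 log2 units, and culture 1 was the highest here as well. The log2 difference was -2.81 ± 0.22 (SE, limma adjusted p = 6.82e-04), a 7.01-fold lower level in the lines.

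Agt encodes angiotensinogen, the precursor that renin cleaves. It measured 9.72, 9.73 and 9.51 in the cultures and 8.42, 7.84 and 8.72 in the lines. The lines lay below the cultures but spread more widely, with an SD of 0.45 against 0.12. The log2 difference was -1.33 ± 0.22 (SE, limma adjusted p = 0.00652), or 2.51-fold. On leaving out 1 array its adjusted p was 0.0028 to 0.0342.

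Lep encodes leptin, the hormone by which fat stores curb appetite. Its values were 6.10, 6.34 and 5.96 in the cultures and 5.97, 5.70 and 5.74 in the lines. OS_493H lay just above culture 3, so the groups overlapped. The log2 difference of -0.33 ± 0.13 (SE) did not pass (limma adjusted p = 0.111). Every value lay below the array medians (7.45 to 7.58), and such low values do not say whether the transcript was present in either group.

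Rbp4 carries retinol in blood and is released by liver and fat. It measured 8.09, 7.91 and 7.49 in the cultures and 7.86, 7.13 and 9.67 in OS_493H, OS_494H and OS_716H. OS_716H alone lay above the cultures, and OS_494H below them. The log2 difference of 0.39 ± 0.61 (SE) did not pass (limma adjusted p = 0.711), and without OS_716H it was -0.34 (adjusted p = 0.424).

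Nampt makes nicotinamide mononucleotide in the salvage route to NAD and is also found outside cells, where it is called visfatin. It stood at 11.47, 11.16 and 11.37 in the cultures and at 11.31, 11.49 and 10.85 in the lines. The groups overlapped, with OS_494H the highest sample and OS_716H the lowest. The log2 difference was -0.12 ± 0.17 (SE, limma adjusted p = 0.698), and it was 0.07 without OS_716H.

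Among the 3 cultures no member differed by more than 2-fold in any pair, and these comparisons have 1 array on each side and no test. Over all genes, culture 2 was more than 2-fold higher than culture 1 for 0.517% and lower for 0.236%, and against culture 3 the shares were 0.752% and 0.181%. Culture 3 was lower than culture 1 for 0.0150% and higher for 0%. All 7 members were lower in culture 3 than in culture 1, whereas 45.4% of all genes were higher. The differences were largest for Adipoq (-0.71), Rbp4 (-0.61), Retn (-0.54) and Rarres2 (-0.37), and 0.236%, 0.451%, 0.737% and 2.66% of all genes differed by more in either direction. In culture 2 relative to culture 1, Adipoq differed by -0.91, Rarres2 by -0.74 and Retn by -0.52. Of all genes, 1.06%, 1.93% and 4.27% differed by more in that pair. Nampt differed by -0.30 and Rbp4 by -0.19, whereas Lep (0.24) and Agt (0.01) were slightly higher in culture 2. Both comparisons share culture 1. Between cultures 2 and 3 Adipoq differed by -0.20 and Retn by 0.02.

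The fat cell regulators and lipid droplet genes were compared in the same pairs. All 18 measured genes of this list were lower in culture 2 than in culture 1, with a median log2 difference of -0.62, and 17 of them were lower in culture 3 than in culture 1 (median -0.42). The median over all genes was -0.01 in both pairs, where 48.1% and 45.4% of all genes were above 0. Between cultures 2 and 3, 16 of the 18 were lower in culture 2 (median -0.16). In that pair 4 of the 7 members were higher in culture 2 (median 0.02), as were 51% of all genes. The fatty acid transporter Cd36 was 11.52, 10.03 and 10.76 in cultures 1, 2 and 3, and the glycerol channel Aqp7 was 10.66, 9.43 and 9.97. The osteoblast factor Sp7 was highest in culture 2, at 10.50 against 9.13 and 8.91. The phosphatase Alpl was also highest there, at 13.03 against 11.83 and 11.72, as were Ibsp and Col1a1. Dmp1 went the other way and was lowest in culture 2, at 10.80 against 11.49 and 11.19. Whether the 3 cultures differ in their content of fat cells was not tested.

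**Figure D2:**
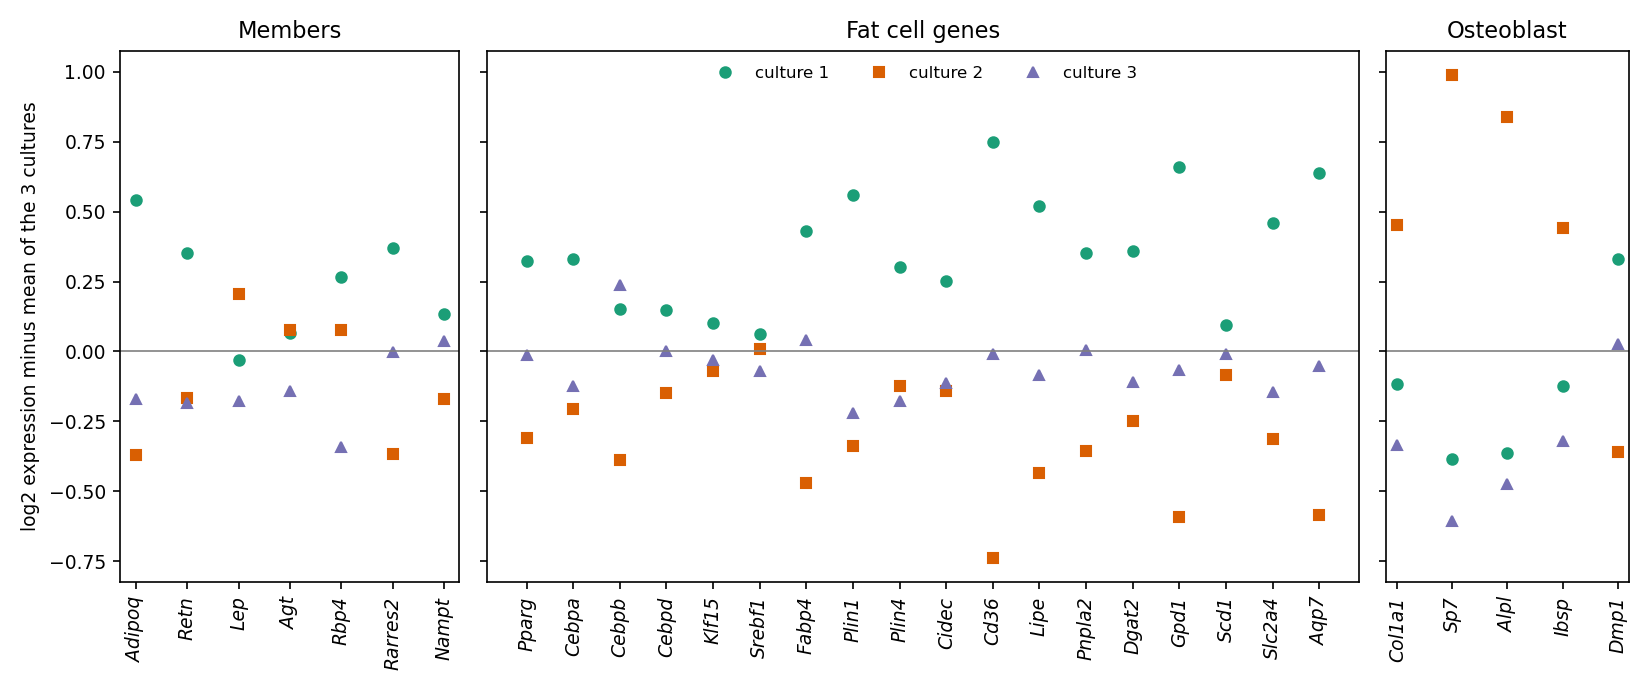
Log2 expression in each osteoblast culture minus the mean of the 3 cultures (y axis), for the 7 members, the 18 fat cell genes and the 5 osteoblast markers measured, with 1 symbol per culture. Culture 1 lies above culture 2 for all 18 fat cell genes. Culture 2 lies highest for Sp7, Alpl, Ibsp and Col1a1 and lowest for Dmp1.

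Among the lines, Rbp4 was the only member past 2-fold in any pair. Its log2 difference from OS_716H was -1.81 in OS_493H and -2.55 in OS_494H. Over all genes, OS_493H was more than 2-fold below OS_716H for 0.802% and above it for 1.21%, and for OS_494H against OS_716H the shares were 2.04% and 1.23%. Between OS_493H and OS_494H no member passed 2-fold, where 2.13% of all genes were higher and 0.707% lower in OS_493H. The retinaldehyde dehydrogenase Aldh1a2, on the fixed retinol list, also read highest in OS_716H, at 10.57 against 5.86 in OS_493H and 8.04 in OS_494H, although over the lines and cultures it passed only without OS_493H (limma adjusted p = 0.0291). Agt was lowest in OS_494H, 0.89 below OS_716H and 0.59 below OS_493H.

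The profiles over the 6 arrays, each centred on its own mean, were compared by their root mean square difference across 19937 other genes, as a description. Nearest to Adipoq were Cd36 (0.43 log2 units), Retn (0.62) and the carbonic anhydrase Car3 (0.72). Nearest to Retn were insulin-like growth factor 2, Igf2 (0.26), the glycerol-3-phosphate dehydrogenase Gpd1 (0.29) and Cyp2f2 (0.30). Rarres2 lay nearest to the lipoprotein gene Apoe (0.12), the corticotropin receptor Mc2r (0.13) and the lipid droplet gene Plin4 (0.16), and Agt to Chac1 (0.07), Nol3 and Bcl6 (both 0.12). Rbp4 lay nearest to Vit (0.20), the angiotensin-converting enzyme Ace (0.24) and Osr2 (0.26). Lep (Vps33b, Fam83a and Hexim2) and Nampt (Utp4, Sdad1 and Mocos) had neighbours within 0.07. The measure is not scaled, so members that vary little have closer neighbours by construction, and a smaller distance is not a closer likeness.

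Of 15 measured receptors and binding partners of the members, Adipor2 and Insr fell and none rose. The 2 that fell are 13.3% of the list, near the 11.4% of all genes called lower. Adipor2, a receptor of adiponectin, was 11.78, 11.27 and 11.48 in the cultures and 10.72, 11.11 and 10.55 in the lines, and its log2 difference was -0.71 ± 0.18 (SE, limma adjusted p = 0.0319). Its call was lost without culture 1, culture 3, OS_493H or OS_716H (adjusted p up to 0.107). Insr, the insulin receptor, listed for a disputed link to Nampt, differed by -0.86 ± 0.14 (SE, limma adjusted p = 0.00558) and kept its call on leaving out any 1 array.

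The other adiponectin receptor, Adipor1, was 11.25, 11.16 and 11.27 in the cultures and 11.33, 11.56 and 11.34 in the lines, and its difference of 0.18 ± 0.09 (SE) did not pass (limma adjusted p = 0.207). Cdh13 (T-cadherin), which binds large adiponectin complexes, was 6.78, 6.80 and 6.87 in the cultures and 8.26, 7.13 and 7.73 in the lines. Each line lay above each culture, with a difference of 0.89 ± 0.26 (SE, limma adjusted p = 0.0508) that narrowly missed the threshold. It passed without OS_494H (adjusted p = 0.00415), and also with quantile normalisation, median centring, a filter on dim genes, an intensity trend, separate group spreads or array weights.

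The leptin receptor Lepr was 6.20, 6.68 and 6.14 in the cultures and 6.63, 8.23 and 9.87 in OS_493H, OS_494H and OS_716H. OS_493H lay among the cultures and the other lines above them, and the difference of 1.90 ± 0.74 (SE) did not pass (limma adjusted p = 0.118), though it did without OS_493H (adjusted p = 0.0166).

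Among the chemerin receptors, the signalling receptor Cmklr1 differed by -0.13 ± 0.10, Gpr1 by -0.06 ± 0.13 and the non-signalling Ccrl2 by 0.05 ± 0.10 (SE), none past the threshold. The sign of Gpr1 turned without culture 3 or OS_493H and with quantile normalisation or median centring, and that of Ccrl2 without OS_494H and with array weights. Stra6, the membrane receptor of retinol-bound Rbp4, was 7.82, 8.45 and 7.84 in the cultures and 7.63, 7.56 and 7.69 in the lines, a difference of -0.41 (limma adjusted p = 0.149). Of the angiotensin receptors, Agtr1a differed by 0.37, Agtr2 by 0.12 and Mas1 by 0.06, and none passed, although Agtr1a did without OS_494H (adjusted p = 0.0253). Cap1, a reported binding partner of resistin, differed by 0.14, and the complement receptors C3ar1 and C5ar2 by 0.35 and -0.28. The last 2 passed without OS_716H (adjusted p = 0.00912 and 0.031).

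**Figure D3:**
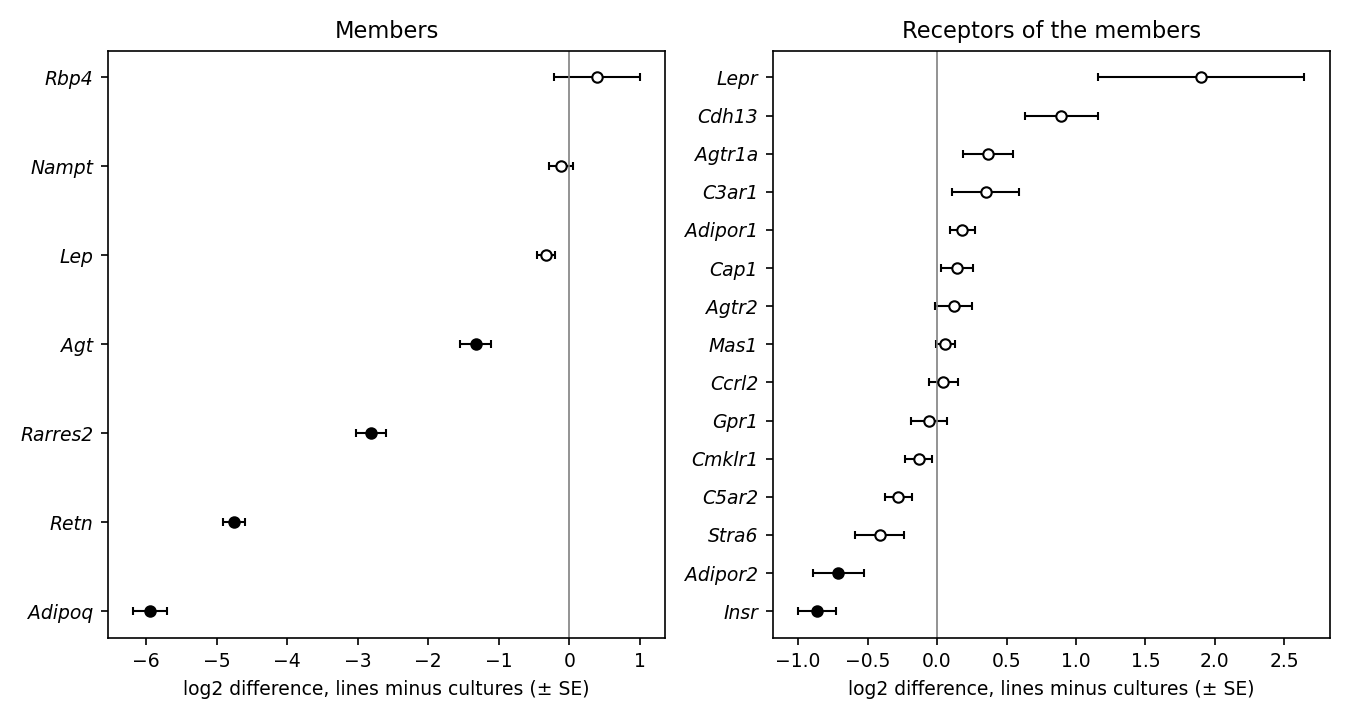
Log2 differences, lines minus cultures (x axis), with SE bars for the 7 members (left) and the 15 measured receptors (right), on separate x scales. Filled points passed limma at an adjusted p under 0.05: Adipoq, Retn, Rarres2 and Agt on the left, and Adipor2 and Insr on the right.

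No close relative of resistin or adiponectin passed. Of 14 measured resistin-like and C1q/TNF genes, none fell and none rose in limma, against 11.4% and 13.2% of all genes. In a list of 14 genes such shares amount to few calls. At an unadjusted p under 0.05 there was 1, C1qtnf1. The resistin-like genes Retnla, Retnlb and Retnlg differed by -0.06, -0.02 and -0.11, and the signs of Retnla and Retnlb turned with quantile normalisation and median centring. Their group means ran from 4.67 to 5.24, below the array medians (7.45 to 7.58). Such low values do not say whether these transcripts were present in either group. C1qtnf3 was 9.20, 7.54 and 6.91 in OS_493H, OS_494H and OS_716H, against 6.95, 7.08 and 6.85 in the cultures, and C1qtnf1 differed by 0.91 (limma adjusted p = 0.114). Without OS_494H, 3 of the 14 rose, C1qtnf1 among them.

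Of 24 other measured adipokines, 8 fell and 3 rose in the lines (33.3% and 12.5%), with a median log2 difference of -0.27. Over all genes the shares were 11.4% and 13.2%. Lgals12, a galectin of lipid droplets, fell 17.6-fold, from 11.16, 10.29 and 10.53 in the cultures to 6.60, 6.53 and 6.43 in the lines (limma adjusted p = 2.50e-04). Hp, the haemoglobin-binding haptoglobin, fell 10.8-fold, with 8.72, 6.63 and 9.18 in the lines and a culture mean of 11.61. Apoe fell 7.54-fold. Gpx3, a secreted peroxidase, rose 11.2-fold, from 8.21, 7.62 and 7.73 to 12.42, 10.43 and 11.15 (limma adjusted p = 0.00341). All these kept their calls on leaving out any 1 array, with Hp at an adjusted p up to 0.0498.

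The other rises were Apln (apelin, 2.49-fold) and the chemokine Ccl2 (2.60-fold), and Ccl2 lost its call with separate group spreads (adjusted p = 0.0543) and when an array other than OS_494H was left out (up to 0.107). The other falls were Lpl (lipoprotein lipase, 4.59-fold), Nucb2 (the nesfatin precursor, 3.55-fold), Sncg (2.37-fold), the BMP antagonist Grem1 (2.33-fold) and the growth factor Nrg4 (1.72-fold). The calls of Lpl, Sncg and Grem1 were lost without culture 1 or culture 3, where 5 genes of the list fell. That of Sncg was also lost without OS_716H, and that of Grem1 without culture 2, OS_494H or OS_716H. With all arrays Grem1 also lost its call under median centring (adjusted p = 0.0664), robust moderation (0.0564), array weights (0.0504) and tests of all probe sets (0.0574). The adjusted p was up to 0.0792 for Lpl, 0.07 for Sncg and 0.155 for Grem1. These 7 genes were named after their values were seen.

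**Figure D4:**
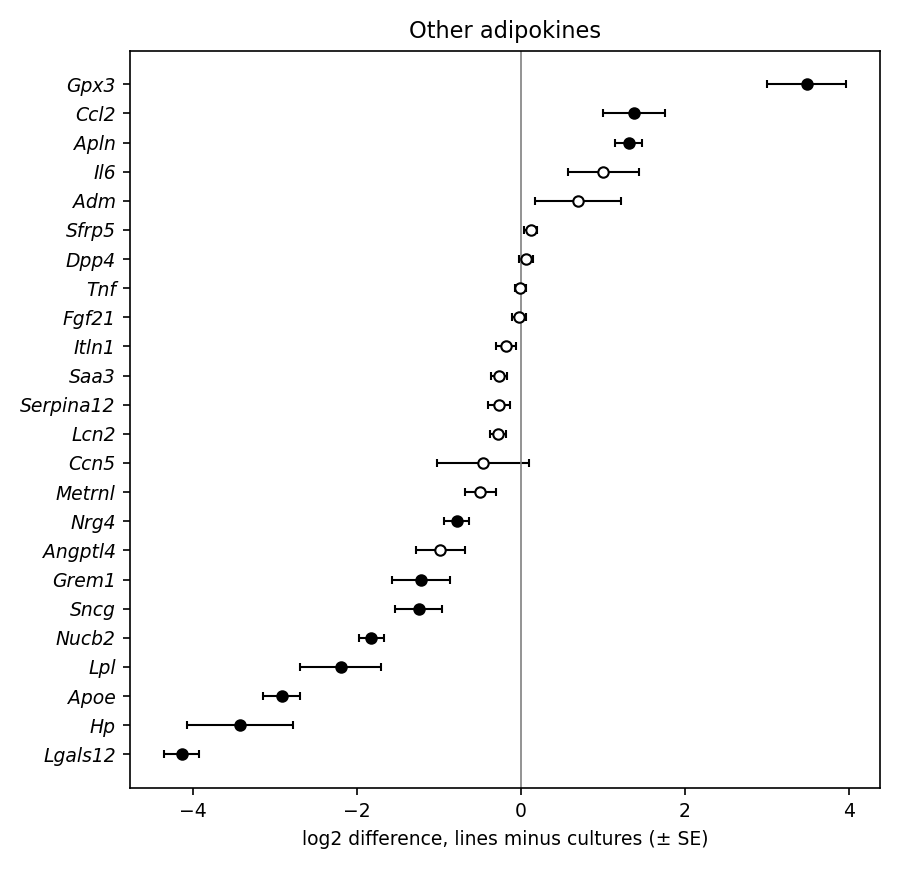
Log2 differences, lines minus cultures (x axis), with SE bars for the 24 other adipokines measured, ordered by size. Filled points passed limma at an adjusted p under 0.05, and 8 of these lie below 0 and 3 above it, from Lgals12 at -4.13 to Gpx3 at 3.48.

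Adiponectin is assembled into disulphide-linked complexes in the endoplasmic reticulum. Of 10 measured genes of its assembly and secretion, 4 fell (40%, against 11.4% of all genes) and none rose. The thiol oxidase Ero1a was 12.55, 12.15 and 12.72 in the cultures and 11.15, 11.12 and 11.01 in the lines, a 2.60-fold fall (limma adjusted p = 0.0016). Its relative Ero1b fell 2.25-fold, the disulphide isomerase Pdia4 1.94-fold and the deacetylase Sirt1 2.08-fold. The call of Ero1b was lost without culture 1 or OS_493H (adjusted p up to 0.0573). Without OS_494H 2 genes of the list rose, the lysyl hydroxylases Plod1 and Plod3. Erp44, which retains adiponectin in the cell, differed by -0.28 (limma adjusted p = 0.11) and passed with quantile normalisation (0.0478), where 5 genes of the list fell.

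Around Agt, 3 of 8 measured renin-angiotensin enzymes and partners fell (37.5%, against 11.4% of all genes) and none rose. The peptidase Mme was 13.08, 13.20 and 13.11 in the cultures and 12.05, 10.94 and 12.07 in the lines, a 2.73-fold fall (limma adjusted p = 0.0146). The protease Ctsd fell 1.68-fold and the prorenin receptor Atp6ap2 1.61-fold. None of the 3 passed without culture 1 or without culture 3. Ctsd was also lost without OS_493H, and Atp6ap2 without OS_493H or OS_716H.

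Around Rbp4, 3 of 11 measured retinol carriers and enzymes rose (27.3%, against 13.2% of all genes) and none fell. The cellular retinoic acid-binding gene Crabp1 rose 5.14-fold, from 9.44, 9.90 and 9.72 to 11.23, 12.63 and 12.29 (limma adjusted p = 0.00444). Crabp2 (1.36, limma adjusted p = 0.0492) and the retinol dehydrogenase Rdh10 (0.49, limma adjusted p = 0.0499) passed narrowly, and neither held when an array other than OS_493H was left out (adjusted p up to 0.164). With all arrays, quantile normalisation and tests of all probe sets also ended both calls, robust moderation that of Crabp2, and an intensity trend or array weights that of Rdh10. Without culture 3 the degrading enzyme Cyp26b1 fell (adjusted p = 0.0217). Ttr, the blood partner of Rbp4, differed by 0.01.

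Around Nampt, the nicotinic acid enzyme Naprt rose 1.44-fold and the NAD synthetase Nadsyn1 fell 1.45-fold among 9 measured NAD salvage genes. Each is 11.1% of the list, beside 13.2% of all genes called higher and 11.4% called lower. Nadsyn1 held its call only with all arrays or without OS_494H (adjusted p up to 0.115 otherwise), and without OS_716H 3 genes rose. Of 7 measured genes of the alternative complement pathway, in which Cfd acts, none passed limma, and 0 had an unadjusted p under 0.05. Cfb, the substrate of Cfd, was 9.73, 8.45 and 9.02 in the cultures and 10.26, 7.15 and 8.14 in the lines, and Masp1 differed by 0.49 (limma adjusted p = 0.218), passing without OS_494H (0.0407).

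Fat cell genes fell with Adipoq and Retn. Of 18 measured regulators and lipid droplet genes, 15 fell and 1 rose (83.3% and 5.56%, against 11.4% and 13.2% of all genes). Their median log2 difference was -1.91, and 15 fell on leaving out any 1 array. Cd36 fell 37.5-fold, Gpd1 22.1-fold, Aqp7 13.7-fold and the droplet protein Plin1 9.48-fold. The fat cell regulators Pparg and Cebpa fell 3.53- and 2.56-fold. The lipid regulator Srebf1 rose 1.32-fold, but did not pass without culture 3 (adjusted p = 0.0669), and without OS_494H Cebpd rose as well. The log2 of the list's signal, summed on the linear scale, was 15.06 to 15.65 in the cultures and 13.99 to 14.11 in the lines. Such a sum is set mostly by the brightest genes. This list, like the members and the other lists, was chosen with earlier results of these arrays known.

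Markers of macrophages, endothelium, liver and brown fat were set beside these values. Of 8 macrophage markers only Cd14 passed, 0.53 higher in the lines, or 12.5% where 13.2% of all genes were called higher. Its call was lost without culture 1, culture 2 or OS_493H (limma adjusted p up to 0.0724), and Csf1r differed by 0.18. The log2 of the summed linear signal of the 8 markers was 9.94 to 10.02 in the lines and 9.80 to 9.94 in the cultures. None of 6 endothelial markers passed limma, also none at an unadjusted p under 0.05. The log2 of their summed linear signal was 9.12 to 9.94 in the lines and 9.07 to 9.11 in the cultures. Tek was 9.05, 6.30 and 7.52 in the lines against 6.40, 6.34 and 6.40 in the cultures, and passed without OS_494H (adjusted p = 0.0199) and with array weights. Emcn differed by 0.15. None of 5 hepatocyte markers passed limma, and 1 had an unadjusted p under 0.05, Apoa1 (-0.24), which passed without OS_716H (adjusted p = 0.0326). Tat differed by -0.07, and albumin (Alb) lay between 5.60 and 5.78 on all arrays. Of 6 brown fat markers, Ppargc1a and Cox7a1 fell (-1.51 and -0.58), or 33.3% where 11.4% of all genes were called lower. Both calls were lost without culture 1, OS_493H or OS_494H, that of Ppargc1a also without culture 3 and that of Cox7a1 also without culture 2. Ucp1, which defines brown fat cells, lay between 5.73 and 6.08 on all arrays. RMA gives no value of 0, and the part of other cell types in these differences was not tested.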

How the data were processed

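Total RNA of 6 samples was hybridised to 1 array each. The deposited table holds log2 expression values for 35556 probe sets. Per the submitters' processing notes, the authors used RMA and mouse build mm9. The version of the software was not given in the sources used here. The deposited arrays have unequal medians (7.45 to 7.58), although RMA usually includes quantile normalisation, and RMA compresses large differences. No scanner files or batches were used, and the number of arrays limits the precision.

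Groups came from the sample titles. No 2 arrays held the same values, with at most 24 identical values. The platform annotation gave 1 symbol for 21789 probe sets, several for 1621 and left 12146 unlisted. Of the symbols, 21698 were found by gene identifier in the RefSeq table of GRCm38.p6. Where a gene had several probe sets (999 genes) the brightest was taken, leaving 19938 genes. Lines and cultures were compared by limma 3.58.1 in R 4.3.3 (two-sided, lmFit then eBayes) on the values as deposited, without a filter or covariate, with Benjamini-Hochberg adjustment over all genes. Differences are lines minus cultures, and folds are their powers of 2. On simulated data of 19938 genes with the means and residual SDs of these arrays, the fit recovered 76% of genes changed 2-fold and 95% of those changed 4-fold, and 11 of 182 calls were false.

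Members and gene lists were chosen with earlier results of these data known, and lists were counted without a set test. Named are all members and receptors, up to 4 called genes of each list with the largest difference (or the largest 2 where fewer passed), the 3 nearest profiles of each member and the label checks. Apln, Ccl2, Lpl, Nucb2, Sncg, Grem1, Nrg4, Pparg, Cebpa, Srebf1, Cebpd, Cyp26b1, Plod1, Plod3, Erp44, Aldh1a2, Ttr, Alb, Ucp1 and the Retnl genes were named after their values were seen. All names but Rarres2 (7 of 8) had an upstream stretch in the RefSeq promoter table. The 50 bases after the start site were left out.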

Additional observations from a re-analysis of the deposited data

How the results depend on the processing

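Adipoq, Retn, Rarres2 and Agt kept their direction and their call under all 17 alternatives, which were quantile normalisation, median centring, a filter on dim genes, robust moderation, an intensity trend, separate group spreads, array weights, probe sets averaged per gene, tests of all probe sets, at least a 2-fold change, an adjusted p under 0.01 and leaving out each array in turn. Lep kept its side of the threshold in the 16 that could be run, since the filter removed it. On leaving out 1 array the log2 difference of Rbp4 ran from -0.34 (without OS_716H) to 0.94 (without OS_494H), and that of Nampt from -0.25 to 0.065. No paired analysis was run, since the labels pair no line with a culture.

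Counts over all genes moved with the settings too. Genes called lower and higher numbered 2274 and 2622 in the reported fit. They were 1072 and 1394 at an adjusted p under 0.01, and 561 and 811 with at least a 2-fold change. With array weights they were 2877 and 3322. On leaving out 1 array they ran from 1211 to 2314 and from 1533 to 2796. The receptors that fell numbered 1 at an adjusted p under 0.01 and 0 with at least a 2-fold change, and 1 to 2 on leaving out 1 array. The receptors that rose numbered 1 with quantile normalisation, median centring, the filter, the trend, group spreads or array weights, and 0 to 2 on leaving out 1 array. With array weights 2 resistin and C1q/TNF relatives rose, and 0 to 3 did on leaving out 1 array. Other adipokines that fell numbered 3 at an adjusted p under 0.01 and 5 to 9 on leaving out 1 array. Adiponectin assembly genes that rose numbered 0 to 2 on leaving out 1 array, and complement genes 0 to 1. Renin-angiotensin genes that fell numbered 0 at an adjusted p under 0.01, 1 with at least a 2-fold change and 0 to 3 on leaving out 1 array. Retinol genes that rose numbered 1 with quantile normalisation, with all probe sets and at an adjusted p under 0.01, and 1 to 4 on leaving out 1 array, where 0 to 1 fell. NAD salvage genes that fell numbered 0 at an adjusted p under 0.01 or with at least a 2-fold change and 0 to 1 on leaving out 1 array, and those that rose 0 with at least a 2-fold change and 1 to 3 on leaving out 1 array. Fat cell genes that rose numbered 2 with the filter, group spreads or array weights, 0 at an adjusted p under 0.01 or with at least a 2-fold change, and 0 to 2 on leaving out 1 array. With a 1.5-fold limit, members past it numbered 2 between cultures 1 and 2, 2 between cultures 1 and 3, 2 between OS_493H and OS_494H and 3 between OS_494H and OS_716H. Alternatives for the pairs of lines were chosen after seeing the data. Where a count moved, the cause was not tested.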
